A study of Mus musculus with 8 samples.

Results

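Naive embryonic stem cells (ESC) were compared with primed epiblast stem cells (EpiSC) on Affymetrix Mouse Gene 2.1 arrays. The comparison rests on 4 of the series' 8 arrays, the 2 titled ESC and the 2 titled EpiSC. All lines were wild-type C57BL/6J mouse cells, and the labels give E3.5 preimplantation embryos as the origin of both, EpiSC included. ESC were grown without feeder cells in DMEM with 15% FCS and 2i/LIF. 2i is a pair of kinase inhibitors that block MEK, the kinase above ERK, and GSK3, the kinase that marks beta-catenin for degradation, and LIF is the cytokine that activates STAT3. The 15% FCS stands in the sample's culture label, and the growth protocol does not name it. EpiSC were grown in KODMEM with 20% serum replacement (KSR) and FGF2 on MEF, a feeder layer of mouse embryonic fibroblasts. Cell state, basal medium, signalling additives and feeders therefore changed together between the groups and cannot be told apart. The remaining arrays, 2 of FGF-ESC (E3.5-derived lines grown in the EpiSC type of medium, also on MEF) and 2 of ICM (inner cell mass of uncultured E3.5 blastocysts), entered the estimate of the spread and are shown beside the results. Whether the paired arrays of each group are separate cultures is not stated, so the spread behind every p-value may be technical only.

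Naive cells resemble the epiblast before implantation, and primed cells the epiblast after it. In the mouse the naive state is held by a network of transcription factors (KLF proteins, ESRRB, TFCP2L1, TBX3 and others) that LIF through STAT3 and the 2 inhibitors keep active. Primed cells keep the core factors OCT4, SOX2 and NANOG, depend on FGF and activin or Nodal signals, raise de novo DNA methyltransferases and stand close to the first steps of gastrulation.

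Expression is given as log2 intensity, as deposited, with 1 probe set for each gene, and 1 unit is a doubling. Differences are ESC minus EpiSC, so that a negative value means a higher level in EpiSC. The sign ± gives the standard error of the linear model fit (limma), with the spread pooled over the 4 groups. That spread was wider in FGF-ESC and ICM (residual standard deviation 0.28 and 0.21) than in ESC and EpiSC (0.12 and 0.15). A gene was called at a Benjamini-Hochberg adjusted p below 0.05 and a difference of at least 1 (2-fold). The median of all values on the arrays, 4.24, served as a floor, and levels under it are treated as near background. The medians of the 8 arrays lay between 4.16 and 4.28. The ESC arrays correlated with each other at r = 0.994 and the EpiSC arrays at r = 0.991 across the genes tested, which are not independent replicates, against 0.921 between the means of the groups. Between the ESC arrays 0 genes differed by at least 1, and between the EpiSC arrays 20 did.

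Of 13597 genes tested, 1001 were called (7.36%). ESC were higher for 476 of them (3.5%) and EpiSC for 525 (3.86%). The median difference over all tested genes was 0.005, with quartiles of -0.22 and 0.21. A difference of at least 2 on the log2 scale (4-fold) was reached by 143 genes higher in ESC and 123 higher in EpiSC, and one of at least 4 (16-fold) by 10 and 9. In 121 of the 476 genes the EpiSC mean lay below the floor, and in 161 of the 525 the ESC mean did. The folds of these genes rest on a level near background. The filter asked for levels above the floor on at least 2 of the 8 arrays. Some named genes passed it only through their EpiSC arrays, so that a call higher in ESC could not arise. They include Fgf5, Fgf8, Fgf15, Cer1, Fabp7, Lhx1, Wnt8a, Tdrkh and Slc39a8. Among the called genes, 0 had overlapping ESC and EpiSC arrays. Of all 13597 tested genes, 9170 did not overlap either, so a lack of overlap adds little to a call.

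**Figure D1:**
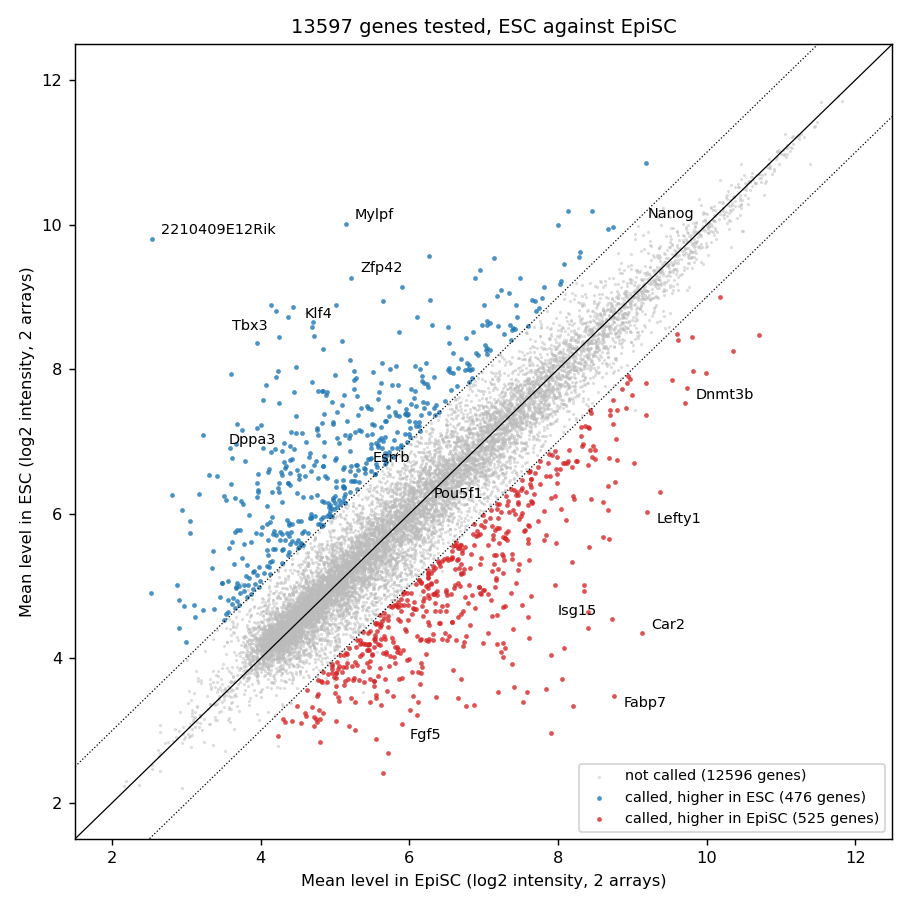
Mean level in ESC (vertical axis) against EpiSC (horizontal axis), both in log2 intensity over 2 arrays, for the 13597 genes tested. Blue points are the 476 genes called higher in ESC, red points the 525 called higher in EpiSC and grey points the genes not called; the solid line marks equal levels and the dotted lines a difference of 1. Naive factors such as Klf4, Tbx3 and Zfp42 lie at 8 or more in ESC and near the floor in EpiSC, and Fabp7, Car2 and Isg15 lie on the opposite side.

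The group labels were set beside marker genes. These were chosen with earlier results of these data known, so they are no independent check of the labels. Of the primed markers, Fgf5, Fgf8 and Cer1 passed the filter only through their EpiSC arrays. All 8 markers of the naive state were called higher in ESC, with a median difference of 3.89, and all 8 markers of the primed epiblast were called higher in EpiSC, with a median of -2.90. Of 9 tested fibroblast markers, 3 were called higher in EpiSC, the group grown on feeders, and 0 higher in ESC. Their mean level was 4.02 and 4.05 on the ESC arrays and 4.90 and 5.32 on the EpiSC arrays, against 9.37 and 8.14 on the FGF-ESC arrays and 4.10 and 4.28 on the ICM arrays. In samples of many cells, fewer cells of a type and less RNA per cell cannot be told apart.

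Most genes on the list of the naive state were higher in ESC. This list and those below were chosen with earlier results of these data known. Their counts are therefore no independent check of a direction. Of 35 tested genes of the naive state, 29 were called higher in ESC and 1 higher in EpiSC, with a median difference of 2.18 against 0.005 over all genes tested. Klf4, a Kruppel-like factor used in reprogramming and a target of STAT3, was measured at 8.61 and 8.56 in ESC and 4.55 and 4.82 in EpiSC. Its difference was 3.90 ± 0.13 (14.9-fold, adjusted p = 4.16e-06). Tfcp2l1, another STAT3 target that sustains self-renewal, had 8.99 and 8.78 in ESC and 4.82 and 5.19 in EpiSC, a difference of 3.88 ± 0.16 (14.7-fold, adjusted p = 6.68e-06). Tbx3, a T-box factor, had 8.50 and 8.39 in ESC and 4.09 and 4.39 in EpiSC, a difference of 4.20 ± 0.14 (18.4-fold, adjusted p = 4.16e-06). For each of these factors the EpiSC arrays lay within 1 unit of the floor and the ESC arrays far above it.

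Zfp42 (Rex1), a zinc finger protein long used as a marker of the naive state, was at 9.28 and 9.26 in ESC and 4.91 and 5.52 in EpiSC (difference 4.05 ± 0.21, 16.6-fold, adjusted p = 1.92e-05). Nr0b1 (Dax1), an orphan nuclear receptor, was at 8.23 and 8.50 in ESC and 3.51 and 4.40 in EpiSC (difference 4.41 ± 0.32, 21.3-fold, adjusted p = 6.88e-05). Of the EpiSC arrays of Nr0b1, 1 lay below the floor and 1 just above it. Nr5a2, a nuclear receptor that can drive Oct4, was 6.78-fold higher in ESC (difference 2.76 ± 0.14, adjusted p = 1.52e-05). The remaining factors of the panel differed by less. Klf5 was at 9.53 and 9.56 in ESC and 6.66 and 7.63 in EpiSC (difference 2.40 ± 0.27, 5.28-fold, adjusted p = 0.000586). Klf2, an early target of the MEK inhibitor, differed by 1.75 ± 0.21, and Prdm14, a repressor of FGF signalling and of DNA methylation, by 1.67 ± 0.20. Esrrb, the estrogen-related receptor that acts below GSK3 inhibition, was at 6.74 and 6.49 in ESC and 5.38 and 5.43 in EpiSC and differed by 1.21 ± 0.16 (2.32-fold, adjusted p = 0.00132), so that it stood above the floor in both groups. Gbx2, a homeobox gene that LIF can induce, was the member called the other way, at 5.02 and 5.31 in ESC and 7.15 and 6.24 in EpiSC (difference -1.53 ± 0.33, 2.90-fold, adjusted p = 0.0136). It was looked at after its value was seen, its other probe set gave -0.60, and the call was lost when ESC replicate 1, ESC replicate 2 or EpiSC replicate 1 was left out.

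**Figure D2:**
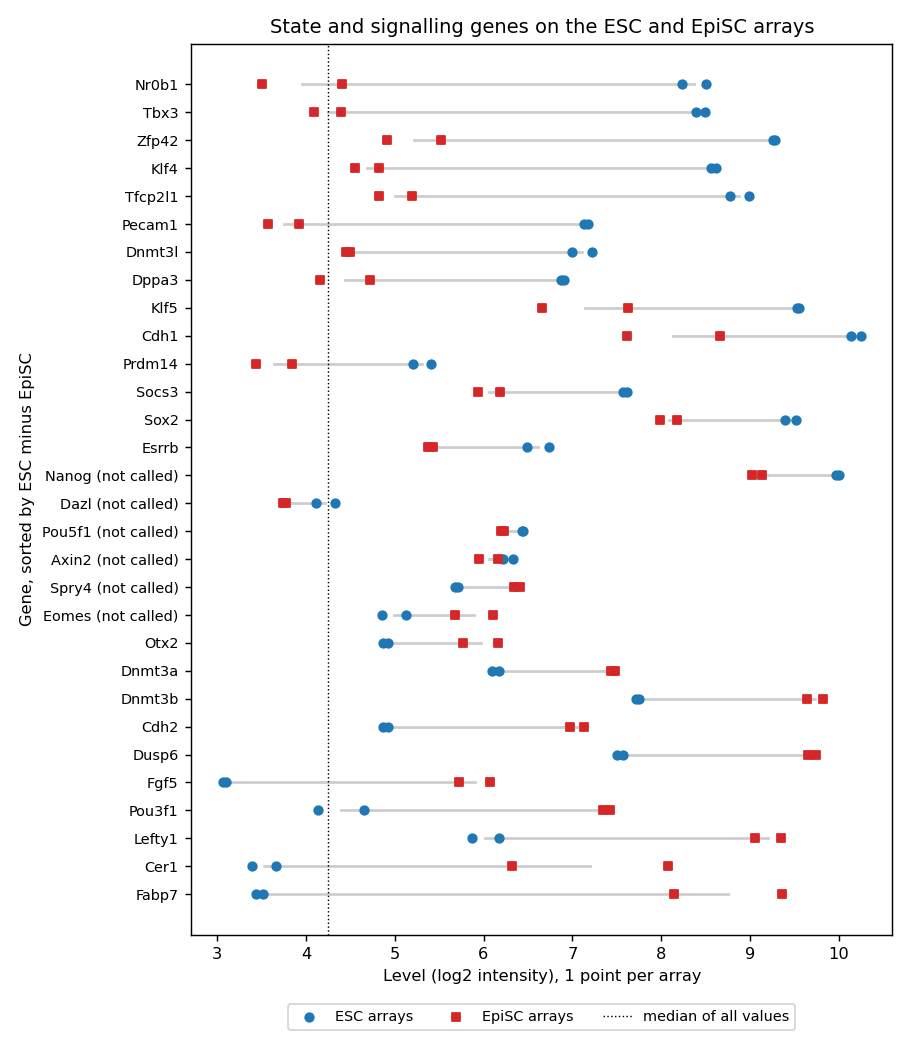
Level (log2 intensity, horizontal axis) of 30 state and signalling genes on each of the 2 ESC arrays (blue circles) and the 2 EpiSC arrays (red squares), sorted by the difference of the means, with a grey line between the means. The dotted line is the floor of 4.24; from Nr0b1 down to Esrrb every ESC array lies above every EpiSC array, from Otx2 to Fabp7 below.

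Over the whole Kruppel-like family, 6 of 16 tested genes were called higher in ESC and 0 higher in EpiSC, with a median of 0.33. Beside Klf2, Klf4 and Klf5 these were Klf3, Klf8 and Klf9, and the call of Klf3 was lost without ESC replicate 1 and when the arrays were centred on their medians.

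Other genes of the naive state followed. Of 20 tested, 17 were called higher in ESC and 0 higher in EpiSC. Fbxo15, an F-box gene that is a target of OCT4 and SOX2, had 8.86 and 8.86 in ESC and 3.63 and 5.25 in EpiSC (difference 4.43 ± 0.45, 21.5-fold, adjusted p = 0.000348), with the EpiSC arrays more than 1 unit apart. Lrrc34, a leucine-rich repeat gene, had 8.74 and 8.86 in ESC and 4.20 and 4.21 in EpiSC (difference 4.59 ± 0.31, 24.2-fold, adjusted p = 5.1e-05), and Calcoco2, a receptor for selective autophagy, had 7.83 and 8.04 in ESC and 3.61 and 3.59 in EpiSC (difference 4.34 ± 0.15, 20.2-fold, adjusted p = 4.16e-06). Dppa4, a chromatin protein, was 11.7-fold higher in ESC, and Pecam1, a surface adhesion molecule of the inner cell mass, 10.6-fold. Dppa3 (Stella), a maternal protein that guards DNA methylation marks in the early embryo, had 6.87 and 6.91 in ESC and 4.16 and 4.72 in EpiSC (difference 2.45 ± 0.26, 5.46-fold, adjusted p = 0.000424). Gdf3, a TGF-beta ligand, differed by 2.18 ± 0.16, and Tex19.1, a germline gene that restrains transposons, by 0.8 ± 0.21 without passing the fold minimum (adjusted p = 0.0289).

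The core factors differed far less. Of 9 tested, 1 was called higher in ESC and 0 higher in EpiSC, with a median of 0.13. At an unadjusted p under 0.05, 2 were higher in ESC and 2 in EpiSC. Sox2 was the called gene, at 9.40 and 9.52 in ESC and 7.99 and 8.18 in EpiSC (difference 1.38 ± 0.20, 2.59-fold, adjusted p = 0.00195). Nanog was at 10.00 and 9.97 in ESC and 9.13 and 9.03 in EpiSC. Its difference of 0.91 ± 0.21 had an adjusted p of 0.0184 but missed the 2-fold minimum. Pou5f1, which encodes OCT4, was at 6.43 and 6.44 in ESC and 6.23 and 6.19 in EpiSC, a difference of 0.23 ± 0.12 (adjusted p = 0.238). The ESC arrays of Pou5f1 lay above the EpiSC arrays by less than the fold minimum. Tdgf1 (Cripto), the co-receptor of Nodal, was among the brighter genes at 10.55 and 10.59 in ESC and 10.80 and 10.76 in EpiSC (adjusted p = 0.304).

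Genes of the primed epiblast lay on the other side. Of 39 tested, 21 were called higher in EpiSC and 1 higher in ESC, with a median of -1.07. Among the transcription factors, 7 of 15 were called higher in EpiSC. Pou3f1 (Oct6), a POU factor of the egg cylinder epiblast, had 4.14 and 4.66 in ESC and 7.43 and 7.35 in EpiSC (difference -2.99 ± 0.18, 7.95-fold, adjusted p = 2.95e-05). Lef1, the nuclear partner of beta-catenin, had 4.39 and 4.32 in ESC and 7.02 and 7.09 in EpiSC (difference -2.70 ± 0.17, 6.51-fold, adjusted p = 3.91e-05). Otx2, the homeodomain factor that moves cells out of the naive state, had 4.93 and 4.87 in ESC and 5.76 and 6.17 in EpiSC (difference -1.07 ± 0.19, 2.10-fold, adjusted p = 0.00525). The Otx2 groups did not overlap, but its difference stood close to the minimum and the call was lost without ESC replicate 2 or without EpiSC replicate 2. Etv5, an ETS factor downstream of FGF, was high in both groups, at 10.07 and 10.03 in ESC and 10.28 and 10.35 in EpiSC (adjusted p = 0.181).

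Secreted and surface proteins of the primed state gave some of the widest gaps. Fgf5, the classical ligand of the post-implantation epiblast, was at 3.07 and 3.10 in ESC and 5.72 and 6.07 in EpiSC, below the floor in ESC and above it in EpiSC (difference -2.81 ± 0.17, 7.04-fold, adjusted p = 2.81e-05). Fgf8, a ligand of the primitive streak, was at 3.52 and 3.46 in ESC and 5.68 and 5.41 in EpiSC (difference -2.06 ± 0.20, 4.17-fold, adjusted p = 0.000309). Enpp3, a surface phosphodiesterase, was 8.39-fold higher in EpiSC (adjusted p = 9.15e-06), and Sema6a, a transmembrane semaphorin, was at 3.41 and 3.80 in ESC and 7.47 and 7.36 in EpiSC (difference -3.81 ± 0.30, 14.0-fold, adjusted p = 9.65e-05). Fabp7, a brain-type fatty acid binding protein, had the largest difference of all genes called higher in EpiSC, at 3.51 and 3.44 in ESC and 9.36 and 8.15 in EpiSC (difference -5.28 ± 0.32, 38.8-fold, adjusted p = 3.12e-05). The EpiSC arrays of Fabp7 were more than 1 unit apart, and both lay far above the ESC arrays. Stmn2, a neuronal stathmin on the same list, did not separate the groups, at 9.65 and 9.62 in ESC and 9.56 and 9.62 in EpiSC (adjusted p = 0.897). Lefty2 was the member called higher in ESC (difference 1.21 ± 0.32, 2.32-fold, adjusted p = 0.0330), and that call was lost without ESC replicate 1, ESC replicate 2 or EpiSC replicate 1.

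**Figure D3:**
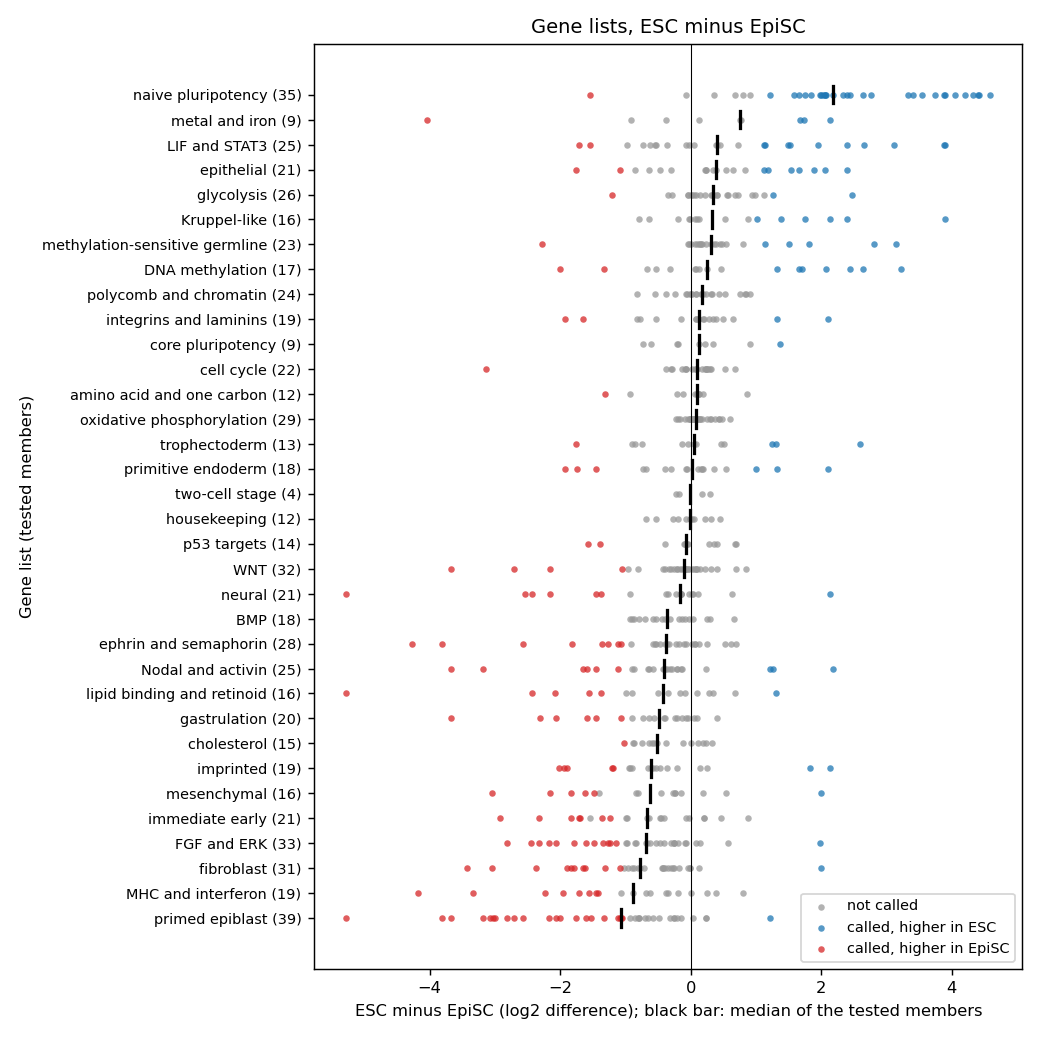
ESC minus EpiSC difference (log2, horizontal axis) of every tested member of each gene list (rows, with the number of tested members), sorted by the list median, which a black bar marks. Blue points are members called higher in ESC, red points members called higher in EpiSC and grey points members not called; the naive list has its median at 2.18 and the primed list at -1.07, and most metabolic and chromatin lists lie near 0.

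Enzymes of DNA methylation differed in both directions. Dnmt3a and Dnmt3b, the methyltransferases that set new methylation, were higher in EpiSC. Dnmt3b was at 7.76 and 7.71 in ESC and 9.82 and 9.64 in EpiSC (difference -2.0 ± 0.14, 3.99-fold, adjusted p = 6.08e-05) and Dnmt3a at 6.17 and 6.10 in ESC and 7.48 and 7.44 in EpiSC (difference -1.33 ± 0.11, 2.51-fold, adjusted p = 0.000124). Dnmt3l, their catalytically inactive partner, went the other way, at 7.22 and 7.0 in ESC and 4.49 and 4.45 in EpiSC (difference 2.64 ± 0.14, 6.24-fold, adjusted p = 1.92e-05). Uhrf1, which brings the maintenance enzyme to newly copied DNA, was at 9.77 and 9.66 in ESC and 9.31 and 9.17 in EpiSC and was not called (adjusted p = 0.0559). Tet2, a dioxygenase that oxidises methylcytosine, was 9.38-fold higher in ESC, at 7.13 and 7.32 in ESC and 3.77 and 4.23 in EpiSC (adjusted p = 4.66e-05), and Tet1, chosen after its value was seen, was 2.49-fold higher (adjusted p = 0.00170). Zfp57, a zinc finger protein that holds methylation at imprinted regions, was at 8.68 and 8.49 in ESC and 6.39 and 6.64 in EpiSC (difference 2.07 ± 0.16, 4.20-fold, adjusted p = 9.65e-05). Over the list, 7 of 17 tested genes were called higher in ESC and 2 higher in EpiSC, with a median of 0.26.

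Germline genes whose promoters are known to be silenced by methylation were called mostly in 1 direction. Of 23 tested, 5 were called higher in ESC and 1 higher in EpiSC, with a median of 0.31. The latter, Tdrkh, passed the filter only through its EpiSC arrays. Rpl10l, a testis copy of a ribosomal protein gene, was at 6.70 and 6.84 in ESC and 2.95 and 4.27 in EpiSC (difference 3.16 ± 0.35, 8.92-fold, adjusted p = 0.000547). Rnf17, a tudor protein of germ granules, was 7.0-fold higher in ESC (adjusted p = 7.77e-05), Tex14, a protein of germ cell bridges, 3.51-fold (adjusted p = 0.000307), Hormad1, a meiotic chromosome axis protein, 2.84-fold and Ddx4 (Vasa), an RNA helicase of germ cells, 2.2-fold. The call of Hormad1 was lost without ESC replicate 2 and without either EpiSC array. Dazl, an RNA-binding protein of germ cells, lay at the floor, at 4.33 and 4.11 in ESC and 3.78 and 3.75 in EpiSC, and was not called (adjusted p = 0.0894). Tdrkh, a tudor protein of the piRNA pathway, was the member higher in EpiSC, at 2.90 and 3.10 in ESC and 4.95 and 5.59 in EpiSC (difference -2.27 ± 0.21, 4.83-fold, adjusted p = 0.000192), with both ESC arrays below the floor.

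LIF signals through the receptor chains LIFR and gp130 to JAK kinases and STAT3, which then switches on its own inhibitor SOCS3. Of 25 tested genes of this pathway, 10 were called higher in ESC and 2 higher in EpiSC, with a median of 0.41. The receptor gene Lifr was at 6.94 and 7.24 in ESC and 5.12 and 5.16 in EpiSC (difference 1.96 ± 0.14, 3.88-fold, adjusted p = 6.57e-05). Il6st, which encodes gp130, was at 7.11 and 7.04 in ESC and 6.51 and 6.74 in EpiSC and was not called (adjusted p = 0.120). Socs3 was at 7.62 and 7.57 in ESC and 5.94 and 6.19 in EpiSC (difference 1.53 ± 0.14, 2.89-fold, adjusted p = 0.000196), and its other probe set gave 0.72. Bcl3, an atypical I-kappa-B protein induced by STAT3, was at 7.0 and 6.94 in ESC and 4.47 and 4.14 in EpiSC (difference 2.67 ± 0.24, 6.34-fold, adjusted p = 0.000163), and the keratin gene Krt17 at 6.24 and 5.87 in ESC and 3.08 and 2.79 in EpiSC (difference 3.12 ± 0.33, 8.67-fold, adjusted p = 0.000434). Stat3 itself, chosen after its value was seen, was 2.2-fold higher in ESC (adjusted p = 0.0197), a call lost without either ESC array and without EpiSC replicate 1. The 2 members higher in EpiSC, Gbx2 and Zfp36, lost their calls in leave-one-out fits, both without ESC replicate 1 and without ESC replicate 2. Cntfr, the receptor chain for ciliary neurotrophic factor that pairs with the LIF receptor, is not on the list and was picked out after its value was seen. It ran against Lifr, at 4.99 and 4.86 in ESC and 8.39 and 8.31 in EpiSC (difference -3.43 ± 0.13, 10.7-fold, adjusted p = 5.72e-06).

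The Socs3 promoter is shown because this feedback inhibitor is the classical direct target of STAT3. The 250 bases before the start site of the RefSeq promoter table (GRCm38.p6, chr11:117969367-117969616, minus strand) hold 1 match to the STAT motif TTCNNNGAA, in capitals, at bases 97 to 105 counted from the 5′ end. This motif reads the same on both strands. RefSeq's span of the whole gene, chr11:117966079-117970336, reaches beyond this window on the upstream side, so the window lies inside the span.

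Socs3: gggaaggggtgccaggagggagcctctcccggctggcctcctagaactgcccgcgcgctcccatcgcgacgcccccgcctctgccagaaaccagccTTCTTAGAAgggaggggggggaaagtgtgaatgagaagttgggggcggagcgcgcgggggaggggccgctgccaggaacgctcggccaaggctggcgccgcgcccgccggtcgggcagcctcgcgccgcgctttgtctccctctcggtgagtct

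In windows of 300 bases around the start site, 250 before it and 50 after, 6.74% of 10611 tested genes with a RefSeq promoter held this motif, and 6 of 22 tested genes of the LIF and STAT3 list did (27.3%). A match is a string of letters and not a measured binding site.

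FGF signals run through ERK to feedback inhibitors and ETS factors, and the ESC medium holds an inhibitor of MEK while the EpiSC medium holds FGF2. Of 33 tested genes of this pathway, 12 were called higher in EpiSC and 1 higher in ESC, with a median of -0.68. Dusp6, the phosphatase that inactivates ERK and a direct readout of the pathway, was at 7.50 and 7.57 in ESC and 9.75 and 9.65 in EpiSC (difference -2.17 ± 0.12, 4.49-fold, adjusted p = 1.97e-05), and its other probe set gave -3.86. Spry2 and Spry4, Sprouty inhibitors, leaned the same way without reaching the fold minimum, with differences of -0.62 ± 0.14 (adjusted p = 0.0191) and -0.68 ± 0.22 (adjusted p = 0.0651). Among receptors, Fgfr1, picked after its value was seen, was 2.79-fold higher in EpiSC (adjusted p = 0.00171). Myc, the growth regulator, was at 5.81 and 5.84 in ESC and 7.73 and 7.50 in EpiSC (difference -1.79 ± 0.18, 3.45-fold, adjusted p = 0.000335). Fgf4, the ligand that naive cells make for themselves, was the member called higher in ESC, at 8.06 and 8.04 in ESC and 5.79 and 6.35 in EpiSC (difference 1.98 ± 0.22, 3.94-fold, adjusted p = 0.000599). Fgf15 was called higher in EpiSC (difference -1.26 ± 0.13, 2.40-fold, adjusted p = 0.000397), but its other probe set gave -0.25 and the call was lost when probe sets of a gene were averaged.

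Immediate early genes are switched on within minutes by growth factors and also by the handling of cells. Of 21 tested, 7 were called higher in EpiSC and 0 higher in ESC, with a median of -0.66. At an unadjusted p under 0.05, 11 were higher in EpiSC and 1 higher in ESC in the same limma fit. Egr1, a zinc finger factor induced by ERK, was at 6.39 and 6.50 in ESC and 8.61 and 8.92 in EpiSC (difference -2.32 ± 0.23, 5.01-fold, adjusted p = 0.000305). Ccn1 (Cyr61), a matrix-associated protein induced by serum, was at 5.69 and 5.67 in ESC and 8.28 and 8.92 in EpiSC (difference -2.92 ± 0.36, 7.58-fold, adjusted p = 0.000840). Ier2 was not called at -0.66 ± 0.15 (adjusted p = 0.0179), and Jund overlapped between the groups, at 7.10 and 7.12 in ESC and 6.56 and 7.26 in EpiSC. The count of 7 fell to 3 without ESC replicate 1, to 4 without ESC replicate 2 and to 3 without EpiSC replicate 2. Egr2, Zfp36 and Btg2 lost their calls in at least 2 of those fits.

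Nodal and activin signals are held in check by their own targets, the LEFTY proteins and CER1. Of 25 tested genes, 6 were called higher in EpiSC and 3 higher in ESC, with a median of -0.41. Lefty1 was at 6.18 and 5.87 in ESC and 9.06 and 9.35 in EpiSC (difference -3.18 ± 0.16, 9.08-fold, adjusted p = 1.43e-05). Cer1, a secreted antagonist of Nodal, BMP and WNT, was at 3.39 and 3.67 in ESC and 6.32 and 8.08 in EpiSC (difference -3.67 ± 0.46, 12.7-fold, adjusted p = 0.000967), and its EpiSC arrays stood more than 1 unit apart. Skil, a corepressor that SMAD proteins induce, was at 5.27 and 5.33 in ESC and 6.82 and 7.07 in EpiSC (difference -1.64 ± 0.17, 3.12-fold, adjusted p = 0.000384). Gdf3 and Pcsk6, a convertase that processes Nodal, were higher in ESC, Pcsk6 by 1.26 ± 0.14 (adjusted p = 0.000518). Of the 7 receptors and SMAD genes tested, 0 were called. Smad4, the common partner, was at 6.96 and 6.91 in ESC and 7.24 and 7.47 in EpiSC (adjusted p = 0.0640).

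The tested markers of gastrulation reached low to moderate levels in EpiSC. T (Brachyury), a marker of the primitive streak, was sought but could not be matched to a gene on the arrays. Of 4 mesoderm markers, 3 were matched and only 1, Mixl1, was tested. Of 20 tested genes of gastrulation, 6 were called higher in EpiSC and 0 higher in ESC, with a median of -0.48. At an unadjusted p under 0.05, 11 were higher in EpiSC and 1 higher in ESC. Of the 6, Cer1, Fgf8 and Lhx1 passed the filter only through their EpiSC arrays, and Foxa2 not without them. Mixl1, a homeobox gene of the primitive streak, was at 4.14 and 4.60 in ESC and 6.07 and 5.84 in EpiSC (difference -1.58 ± 0.21, 2.99-fold, adjusted p = 0.00134). Lhx1, a LIM factor of anterior mesendoderm, was at 3.42 and 3.54 in ESC and 5.61 and 5.96 in EpiSC (difference -2.30 ± 0.18, 4.94-fold, adjusted p = 9.65e-05), and Foxa2, a forkhead factor of definitive endoderm, at 3.97 and 4.11 in ESC and 5.27 and 5.71 in EpiSC (difference -1.45 ± 0.18, 2.73-fold, adjusted p = 0.000897). Apart from 1 Mixl1 array, the ESC arrays of these genes lay below the floor. Eomes was at 5.12 and 4.85 in ESC and 6.11 and 5.68 in EpiSC and missed the fold minimum at -0.90 ± 0.18 (adjusted p = 0.00907). It passed the minimum without ESC replicate 1 and without EpiSC replicate 2. Trh, the thyrotropin-releasing hormone gene, was bright in both groups, at 9.22 and 8.97 in ESC and 9.59 and 9.88 in EpiSC (adjusted p = 0.0299).

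Of 32 tested WNT genes, 4 were called higher in EpiSC and 0 higher in ESC, with a median of -0.10, against 3.86% of all genes higher in EpiSC. At an unadjusted p under 0.05 the counts were 7 and 3. The called genes were Lef1, Cer1, Wnt8a and Tnfrsf19. Cer1 and Wnt8a passed the filter only through their EpiSC arrays, and Tnfrsf19 not without them. Wnt8a, a ligand of the posterior epiblast, was at 3.73 and 3.68 in ESC and 6.21 and 5.49 in EpiSC (difference -2.15 ± 0.21, 4.43-fold, adjusted p = 0.000283). The call of Tnfrsf19 was lost without ESC replicate 1 and without EpiSC replicate 2. Axin2, the usual readout of beta-catenin activity, was at 6.22 and 6.33 in ESC and 6.16 and 5.95 in EpiSC, a difference of 0.22 ± 0.14 that was not called (adjusted p = 0.351). Of 18 BMP genes, 0 were called by limma, and at an unadjusted p under 0.05 9 were higher in EpiSC and 1 higher in ESC. The BMP receptors Bmpr1a and Bmpr2 differed by -0.70 ± 0.12 (adjusted p = 0.00507) and -0.90 ± 0.26 (adjusted p = 0.0431), below the fold minimum. Rspo3, a secreted amplifier of WNT signals outside the lists that was named after its value was seen, was at 4.23 and 4.28 in ESC and 6.35 and 6.66 in EpiSC (difference -2.25 ± 0.25, 4.76-fold, adjusted p = 0.000573).

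Of 21 tested early neural genes, 6 were called higher in EpiSC and 1 higher in ESC, with a median of -0.16. Over all genes 3.86% were called higher in EpiSC and 3.5% higher in ESC, and 1 of 21 is near the latter share. Of the 21 differences, 16 were negative and 5 positive. Sox1, a neural plate factor, was at 4.82 and 4.97 in ESC and 6.51 and 6.19 in EpiSC (difference -1.45 ± 0.18, 2.74-fold, adjusted p = 0.000821), and Nes, the intermediate filament nestin, at 4.89 and 4.54 in ESC and 7.03 and 7.47 in EpiSC (difference -2.54 ± 0.28, 5.82-fold, adjusted p = 0.000469). Hesx1, a homeobox gene of the anterior neural plate, was higher in ESC, at 6.17 and 5.79 in ESC and 3.66 and 4.01 in EpiSC (difference 2.14 ± 0.25, 4.41-fold, adjusted p = 0.000626). Tubb3, a neuronal tubulin, overlapped between the groups (adjusted p = 0.717). Of 16 tested genes of retinoid and lipid binding, 5 were called higher in EpiSC and 1 higher in ESC, with a median of -0.42. Crabp2, which carries retinoic acid to its receptor, was at 6.07 and 6.26 in ESC and 8.76 and 8.44 in EpiSC (difference -2.43 ± 0.17, 5.40-fold, adjusted p = 6.08e-05). Dhrs3, a retinaldehyde reductase that retinoic acid induces, was at 5.15 and 5.20 in ESC and 7.55 and 6.97 in EpiSC (difference -2.08 ± 0.33, 4.24-fold, adjusted p = 0.00322). Fabp3, the member higher in ESC (difference 1.31 ± 0.22, 2.47-fold, adjusted p = 0.00450), lost its call without ESC replicate 1 and when probe sets were averaged. Gap43 and Crabp1 were called higher in EpiSC and lost their calls without ESC replicate 2, Gap43 also without ESC replicate 1 and without EpiSC replicate 2.

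Ephrins and semaphorins, contact and guidance signals that sort cells, were higher in EpiSC for 8 of 28 tested genes and higher in ESC for 0, with a median of -0.37. At an unadjusted p under 0.05 the counts were 13 and 3. Efnb2, a transmembrane ephrin, was at 3.67 and 3.46 in ESC and 7.73 and 7.95 in EpiSC (difference -4.27 ± 0.25, 19.3-fold, adjusted p = 2.77e-05), and the receptor Epha1 at 4.59 and 4.85 in ESC and 7.12 and 7.46 in EpiSC (difference -2.56 ± 0.16, 5.91-fold, adjusted p = 3.18e-05). Sema3e, a secreted semaphorin, was at 3.74 and 3.76 in ESC and 5.57 and 5.58 in EpiSC (difference -1.82 ± 0.12, 3.54-fold, adjusted p = 4.1e-05). Efnb2 was also high in FGF-ESC and ICM, at mean levels of 6.97 and 6.64, so that ESC stood apart from the other 3 groups. The count fell from 8 to 5 without ESC replicate 2. Plxna1 and Plxnb2, receptors for semaphorins, overlapped between the groups (adjusted p = 0.973 and adjusted p = 0.691).

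The classical cadherins lay on opposite sides. Cdh1 (E-cadherin), which joins epithelial cells, was at 10.13 and 10.25 in ESC and 7.62 and 8.66 in EpiSC (difference 2.05 ± 0.31, 4.15-fold, adjusted p = 0.00263), and its other probe set gave 2.13. Cdh2 (N-cadherin) was at 4.86 and 4.92 in ESC and 6.97 and 7.13 in EpiSC (difference -2.16 ± 0.44, 4.46-fold, adjusted p = 0.0109). The Cdh2 groups did not overlap, yet its call was lost when any of the 4 arrays was left out. Those fits gave differences between -2.24 and -2.08. The pooled spread of Cdh2 also takes in FGF-ESC, at 6.30 and 4.98, and ICM, at 4.37 and 3.25. Of 21 tested epithelial genes, 7 were called higher in ESC and 2 higher in EpiSC, with a median of 0.40. The tight junction gene Cldn4 was at 7.03 and 6.96 in ESC and 4.69 and 4.52 in EpiSC (difference 2.39 ± 0.14, 5.26-fold, adjusted p = 2.61e-05), and Spint1, an inhibitor of surface proteases, was 2.92-fold higher in ESC (adjusted p = 0.000654). Dsg2, a desmosomal cadherin, was 3.72-fold higher (adjusted p = 0.000771), though its other probe set gave 0.54. Epcam, an epithelial surface protein, did not follow Cdh1, at 8.13 and 7.97 in ESC and 8.20 and 8.49 in EpiSC (adjusted p = 0.319). Krt18, a keratin of simple epithelia, was higher in EpiSC (difference -1.75 ± 0.31, 3.36-fold, adjusted p = 0.00517), a call lost without ESC replicate 2. The epithelial count of 2 higher in EpiSC fell to 1 without ESC replicate 1 or EpiSC replicate 2 and to 0 without ESC replicate 2.

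The mesenchymal and fibroblast lists share members and are given together. Of 16 mesenchymal genes tested, 5 were called higher in EpiSC and 1 higher in ESC, with a median of -0.63. Of 31 fibroblast genes tested, 10 were called higher in EpiSC and 1 higher in ESC, with a median of -0.77. Vim, an intermediate filament gene of both lists, was at 8.02 and 7.93 in ESC and 9.66 and 9.96 in EpiSC (difference -1.83 ± 0.24, 3.57-fold, adjusted p = 0.00121), and Mmp2, a secreted metalloproteinase, at 4.27 and 4.16 in ESC and 7.29 and 7.22 in EpiSC (difference -3.04 ± 0.29, 8.22-fold, adjusted p = 0.000241). Col1a2, a type I collagen gene, had 3.43 and 3.23 in ESC and 6.58 and 6.95 in EpiSC (difference -3.43 ± 0.23, 10.8-fold, adjusted p = 4.96e-05), but its other probe set gave -0.43. Lum and Dcn encode proteoglycans that fibroblasts secrete. Lum was at 2.97 and 2.87 in ESC and 3.92 and 4.53 in EpiSC (difference -1.31 ± 0.28, 2.48-fold, adjusted p = 0.0141) and Dcn at 3.0 and 3.23 in ESC and 4.28 and 5.24 in EpiSC (difference -1.65 ± 0.32, 3.13-fold, adjusted p = 0.00907). In FGF-ESC their mean levels were 9.45 and 9.77. The call of Dcn was lost without either ESC array and without EpiSC replicate 2. Fn1, the matrix protein fibronectin, which pluripotent cells also make, was the member of both lists higher in ESC (difference 2.0 ± 0.20, 3.99-fold, adjusted p = 0.000309). The fibroblast count of 10 fell to 5 without ESC replicate 1, to 4 without ESC replicate 2 and to 4 without EpiSC replicate 2. The mesenchymal count fell from 5 to 2 without either ESC array or EpiSC replicate 2 and to 3 without EpiSC replicate 1. What RNA from feeder cells contributes to these values was not tested.

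Laminin chains changed in opposite directions. Lama1 was at 6.35 and 6.35 in ESC and 4.36 and 4.11 in EpiSC (difference 2.11 ± 0.14, 4.33-fold, adjusted p = 4.18e-05) and Lamc1 at 9.19 and 9.07 in ESC and 7.74 and 7.88 in EpiSC (difference 1.32 ± 0.13, 2.50-fold, adjusted p = 0.000321), both higher in ESC, while Lamb1 was higher in EpiSC, at 5.35 and 5.36 in ESC and 7.18 and 7.37 in EpiSC (difference -1.92 ± 0.28, 3.79-fold, adjusted p = 0.00218). These chains join into laminin trimers of the basement membrane. The integrin gene Itga6, a laminin receptor, did not separate the groups, at 7.79 and 7.80 in ESC and 7.70 and 7.72 in EpiSC (adjusted p = 0.713). Over 19 tested integrins and laminins, 2 were called in each direction, and Itga3, one of those higher in EpiSC, lost its call without ESC replicate 2.

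The miR-302 cluster, a group of microRNAs that lies inside the span of the Larp7 gene and marks the primed epiblast, was higher in EpiSC at all 5 of its hairpin genes. These genes were picked out after their values were seen. The array probes the transcript at the hairpin, not the mature microRNA. Mir367 was at 2.34 and 2.47 in ESC and 5.58 and 5.72 in EpiSC (difference -3.24 ± 0.15, 9.47-fold, adjusted p = 9.15e-06), Mir302a at 2.71 and 2.65 in ESC and 5.69 and 5.73 in EpiSC (difference -3.03 ± 0.19, 8.16-fold, adjusted p = 3.41e-05) and Mir302c at 3.74 and 3.21 in ESC and 5.98 and 6.12 in EpiSC (difference -2.58 ± 0.37, 5.97-fold, adjusted p = 0.00188). Mir302b and Mir302d differed by -1.59 ± 0.24 and -1.37 ± 0.17. On the ESC arrays all 5 lay below the floor. So did their FGF-ESC and ICM arrays, apart from 1 ICM array of Mir302c. These genes thus entered the test only through their EpiSC arrays, and a call in the other direction could not arise. Larp7 itself, a cofactor of the small nuclear RNA 7SK, was bright in both groups, at 8.35 and 8.52 in ESC and 8.70 and 8.75 in EpiSC, and was not called (adjusted p = 0.214). In GRCm38.p6 the cluster runs on the plus strand from Mir302b (chr3:127545228-127545301) to Mir367 (chr3:127545733-127545807), and the Larp7 span is chr3:127536714-127553349.

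RefSeq gives mature sequences for 11 of the 16 called microRNA genes. Some 3p arms are shown because a seed, the bases 2 to 8 in capitals, is what pairs with targets, and miR-367-3p shares its seed with an arm of another cluster. The build is GRCm38.p6.

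mmu-miR-302b-3p: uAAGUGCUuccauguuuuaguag
mmu-miR-302d-3p: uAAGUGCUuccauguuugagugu
mmu-miR-302c-3p: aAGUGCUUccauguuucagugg
mmu-miR-367-3p: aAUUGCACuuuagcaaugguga
mmu-miR-363-3p: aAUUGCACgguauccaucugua

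miR-302b-3p and miR-302d-3p share the seed AAGUGCU. The entry for miR-302c-3p begins 1 base later, so that the same 7 bases stand at its positions 1 to 7. miR-367-3p and miR-363-3p share another seed, AUUGCAC. Mir363 lies in a different cluster, on chromosome X, and was also higher in EpiSC, at 3.89 and 3.73 in ESC and 6.33 and 5.73 in EpiSC (difference -2.22 ± 0.29, 4.66-fold, adjusted p = 0.00110). Its neighbour Mir18b differed by -1.49 ± 0.23 (adjusted p = 0.00277). Over all microRNA genes, 164 were tested, of which 13 were called higher in EpiSC (7.93%) and 3 higher in ESC (1.83%). Over all genes the shares were 3.86% and 3.5%. The 13 include Mir544 and the 5 genes of the miR-302 cluster, which entered the test only through their EpiSC arrays. For these a call in the other direction could not arise, so the shares are not directly comparable. Beside the genes above, those higher in EpiSC include Mir466b-3, Mir669g, Mir669i, Mir669j and Mir669k, all on chromosome 2. Mir669g, Mir669i and Mir669k have 5, 2 and 9 probe sets, of which the brightest was used. The genes of the miR-302 cluster lie side by side, as do Mir363 and Mir18b, so the 13 are not separate observations. One of the 3 higher in ESC, Mir15a, lies in the span of the noncoding gene Dleu2. Both were higher in ESC, by 1.3 ± 0.34 and 1.27 ± 0.16. The call of Mir15a was lost without any of the 4 arrays. Mir290a, of a microRNA cluster abundant in mouse ESC, lay below the floor on all 8 arrays and was not tested.

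Genes induced by interferon and genes of antigen processing included several that were higher in EpiSC. Of 19 tested, 8 were called higher in EpiSC and 0 higher in ESC, with a median of -0.89, and at an unadjusted p under 0.05 10 were higher in EpiSC and 1 higher in ESC. Isg15, a ubiquitin-like protein, was at 4.37 and 4.72 in ESC and 8.85 and 8.58 in EpiSC (difference -4.18 ± 0.48, 18.1-fold, adjusted p = 0.000626). Usp18, the protease that removes ISG15, was at 4.23 and 4.32 in ESC and 7.81 and 7.41 in EpiSC (difference -3.34 ± 0.50, 10.1-fold, adjusted p = 0.00245), and Bst2 (tetherin), a membrane protein that retains virus particles, at 8.47 and 8.49 in ESC and 10.76 and 10.64 in EpiSC (difference -2.23 ± 0.26, 4.68-fold, adjusted p = 0.000675). H2-K1, a class I heavy chain, was 3.86-fold higher in EpiSC (adjusted p = 0.000475), and the immunoproteasome subunit Psmb9 2.94-fold (adjusted p = 0.000599). Some members of the list were not called. Ifitm3, a restriction factor of membranes, was at 10.16 and 10.07 in ESC and 10.16 and 10.06 in EpiSC (adjusted p = 0.988), and Ifitm2 at 9.98 and 9.71 in ESC and 9.41 and 9.50 in EpiSC (adjusted p = 0.293).

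Several of the largest differences in the whole comparison belonged to the same kind of gene. Rtp4, a chaperone of receptors that interferon induces, was at 3.30 and 3.37 in ESC and 8.42 and 7.98 in EpiSC (difference -4.86 ± 0.35, 29.0-fold, adjusted p = 6.72e-05). Irgm1 and Igtp, immunity-related GTPases, were at 3.49 and 3.93 in ESC and 8.06 and 8.03 in EpiSC (difference -4.34 ± 0.32, 20.2-fold, adjusted p = 7.52e-05) and at 3.93 and 4.17 in ESC and 8.02 and 7.79 in EpiSC (difference -3.86 ± 0.43, 14.5-fold, adjusted p = 0.000572). Oasl2, a 2'-5' oligoadenylate synthetase-like gene, was at 3.22 and 3.57 in ESC and 7.70 and 7.36 in EpiSC (difference -4.13 ± 0.37, 17.5-fold, adjusted p = 0.000176). Irgm2, Ifi27, Parp12 and Parp9, named after their values were seen, were 9.44-fold, 11.5-fold, 8.11-fold and 4.19-fold higher in EpiSC. Eif2ak2 (PKR), a kinase that senses double-stranded RNA, was also called (difference -1.14 ± 0.25, 2.21-fold, adjusted p = 0.0139), a call lost without any of the 4 arrays.

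FGF-ESC, the other cells grown on feeders, also carried these transcripts. Over 11 interferon-inducible genes chosen after their values were seen, the mean level was 4.30 and 4.47 on the ESC arrays, 8.03 and 7.79 on the EpiSC arrays, 8.63 and 7.43 on the FGF-ESC arrays and 4.48 and 4.41 on the ICM arrays. Over 10 fibroblast markers the mean level was 3.93 and 3.94 on the ESC arrays, 4.70 and 5.10 on the EpiSC arrays, 8.88 and 7.65 on the FGF-ESC arrays and 4.06 and 4.23 on the ICM arrays. The average difference, FGF-ESC minus EpiSC, was 0.12 for the 11 interferon-inducible genes and 3.37 for the fibroblast markers. All 11 genes were called higher in EpiSC, so their choice favours a high EpiSC level. The 12 tested interferon-stimulated genes of the list averaged 7.22 and 7.21 on the EpiSC arrays and 8.30 and 7.41 on the FGF-ESC arrays. Of the 10 markers, 6 and 8 were above the floor on the EpiSC arrays against 10 and 9 on the FGF-ESC arrays. Twist2 was below it on both EpiSC arrays. The part of feeder RNA, of feeder-derived signals and of the medium in these values was not tested.

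**Figure D4:**
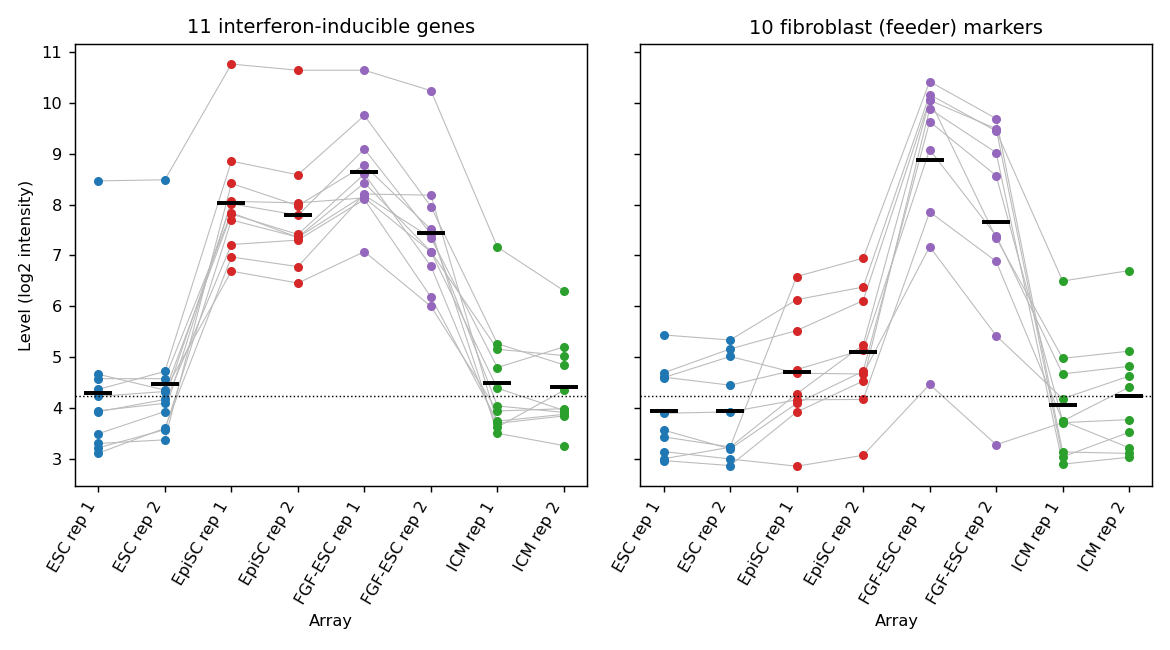
Level (log2 intensity, vertical axis) of 11 interferon-inducible genes (left) and 10 fibroblast markers (right) on each of the 8 arrays; a grey line follows 1 gene, black bars mark the mean of the genes and the dotted line is the floor of 4.24. The interferon-inducible genes, all picked among those called higher in EpiSC, average 8.03 and 7.79 on the EpiSC arrays and 8.63 and 7.43 on those of FGF-ESC. The fibroblast markers average 4.70 and 5.10 in EpiSC and 8.88 and 7.65 in FGF-ESC.

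The promoters of 3 of these genes are shown because the genes differed in the same direction and interferon is known to act on genes of this kind through the interferon-stimulated response element (ISRE). They were picked among those with a match. The core was searched as GAAANNGAA on both strands, and matches are in capitals. Each sequence is the 250 bases before the RefSeq start site in GRCm38.p6, read along the gene: Isg15 at chr4:156200819-156201068 (minus strand), Irgm1 at chr11:48871421-48871670 (minus strand) and Igtp at chr11:58199306-58199555 (plus strand).

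Isg15: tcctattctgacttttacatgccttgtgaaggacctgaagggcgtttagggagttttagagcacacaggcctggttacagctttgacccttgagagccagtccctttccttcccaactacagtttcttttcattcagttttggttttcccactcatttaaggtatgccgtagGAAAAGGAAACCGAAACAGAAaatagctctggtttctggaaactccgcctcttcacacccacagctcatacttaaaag
Irgm1: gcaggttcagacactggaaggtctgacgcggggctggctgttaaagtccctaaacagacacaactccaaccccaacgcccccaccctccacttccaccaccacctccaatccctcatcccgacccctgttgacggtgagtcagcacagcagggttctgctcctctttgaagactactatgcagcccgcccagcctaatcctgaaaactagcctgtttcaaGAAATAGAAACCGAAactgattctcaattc
Igtp: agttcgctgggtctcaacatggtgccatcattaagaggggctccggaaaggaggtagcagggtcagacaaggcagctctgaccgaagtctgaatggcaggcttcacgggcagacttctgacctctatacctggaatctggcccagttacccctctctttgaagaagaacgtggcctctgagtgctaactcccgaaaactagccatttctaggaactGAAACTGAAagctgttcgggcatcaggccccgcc

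Isg15 holds 3 overlapping matches in 1 run, Irgm1 holds 2 overlapping matches and Igtp holds 1, all nearer to the start site than to the far end. In the windows of 300 bases, the core was found in 8 of 18 tested promoters of the interferon and antigen processing list (44.4%), 2 of its 7 called members included, in 6.88% of all 10611 tested promoters and in 7.39% of those of genes called higher in EpiSC. The ISRE core and the STAT motif shared letters in 13 of the 74 promoters that hold both. Not every gene of this kind matched: the windows of Oasl2 and Parp12 hold no such string.

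Of 26 tested genes of glycolysis and pyruvate use, 2 were called higher in ESC and 1 higher in EpiSC, with a median of 0.34. At an unadjusted p under 0.05, 10 were higher in ESC and 1 in EpiSC. Pfkp, the platelet-type phosphofructokinase, was at 7.70 and 7.76 in ESC and 5.10 and 5.40 in EpiSC (difference 2.48 ± 0.29, 5.58-fold, adjusted p = 0.000647). Slc2a3, a glucose transporter, was called higher in ESC (difference 1.26 ± 0.23, 2.39-fold, adjusted p = 0.00606) and Slc16a3, a lactate exporter, higher in EpiSC (difference -1.21 ± 0.23, 2.31-fold, adjusted p = 0.00739). The Slc2a3 call was lost without either ESC array or EpiSC replicate 1, and the Slc16a3 call without either ESC array or EpiSC replicate 2. Pkm and Gapdh had differences of 0.14 ± 0.12 and 0.06 ± 0.12 and were not called (adjusted p = 0.490 and adjusted p = 0.816). Of 29 genes of oxidative phosphorylation, 0 were called by limma, and at an unadjusted p under 0.05 6 were higher in ESC and 0 higher in EpiSC; the median was 0.09. Of 12 genes of amino acid and one-carbon metabolism, 1 was called, Gldc, the glycine decarboxylase, at 5.54 and 5.58 in ESC and 6.99 and 6.75 in EpiSC (difference -1.31 ± 0.12, 2.47-fold, adjusted p = 0.000229). In cholesterol synthesis and uptake, 1 of 15 was called, Stard4, higher in EpiSC (1 higher in ESC and 8 in EpiSC at an unadjusted p under 0.05), and its call was lost without ESC replicate 2 or EpiSC replicate 1. Hmgcs1 and Fdps, enzymes of the same pathway, had differences of -0.87 ± 0.14 (adjusted p = 0.00290) and -0.87 ± 0.14 (adjusted p = 0.00323), below the fold minimum.

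Of 9 tested genes of metal and iron handling, 3 were called higher in ESC and 1 higher in EpiSC, with a median of 0.76. The metallothioneins Mt1 and Mt2, which bind zinc, were higher in ESC, Mt1 at 10.20 and 10.18 in ESC and 7.94 and 8.97 in EpiSC (difference 1.73 ± 0.28, 3.33-fold, adjusted p = 0.00328) and Mt2 at 10.85 and 10.86 in ESC and 8.83 and 9.53 in EpiSC (difference 1.67 ± 0.21, 3.19-fold, adjusted p = 0.000895). Zinc importers lay on opposite sides. Slc39a4 was at 6.82 and 6.75 in ESC and 4.70 and 4.59 in EpiSC (difference 2.14 ± 0.16, 4.40-fold, adjusted p = 8.04e-05) and Slc39a8 at 3.48 and 3.59 in ESC and 7.66 and 7.50 in EpiSC (difference -4.04 ± 0.17, 16.5-fold, adjusted p = 6.68e-06). Nqo1, a quinone reductase induced by oxidative stress and named after its value was seen, was at 8.30 and 8.25 in ESC and 4.81 and 4.85 in EpiSC (difference 3.44 ± 0.15, 10.9-fold, adjusted p = 6.68e-06).

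Of 22 cell cycle genes, 1 was called, Ccnd2, a D-type cyclin, at 4.14 and 4.15 in ESC and 7.48 and 7.09 in EpiSC (difference -3.14 ± 0.32, 8.81-fold, adjusted p = 0.000349). Cdkn1a, the p21 inhibitor, was at 10.02 and 9.78 in ESC and 9.03 and 9.40 in EpiSC and was not called (adjusted p = 0.0593). Of 14 p53 targets, 2 were called higher in EpiSC, the apoptosis genes Pmaip1 (difference -1.38 ± 0.15, 2.61-fold, adjusted p = 0.000436) and Perp (difference -1.57 ± 0.22, 2.96-fold, adjusted p = 0.00177), and 0 higher in ESC by limma, against 2 and 3 at an unadjusted p under 0.05. Of 24 polycomb, SWI/SNF and NuRD genes, 0 were called by limma, and at an unadjusted p under 0.05 6 were higher in ESC and 3 in EpiSC. Of 12 housekeeping genes, 0 were called, with 1 in each direction at an unadjusted p under 0.05 and a median of -0.01.

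Imprinted genes, which are expressed from 1 parental allele, were called higher in EpiSC for 5 of 19 tested and higher in ESC for 2, with a median of -0.61. Grb10, a growth-restraining adaptor, was at 6.17 and 6.24 in ESC and 8.09 and 8.34 in EpiSC (difference -2.01 ± 0.15, 4.03-fold, adjusted p = 8.04e-05), Peg10, a gene of retrotransposon origin, at 6.20 and 6.30 in ESC and 7.96 and 8.43 in EpiSC (difference -1.95 ± 0.17, 3.86-fold, adjusted p = 0.000133) and Cdkn1c, a cyclin kinase inhibitor, at 4.40 and 4.14 in ESC and 6.45 and 5.88 in EpiSC (difference -1.89 ± 0.20, 3.72-fold, adjusted p = 0.000409). Nnat, a small membrane protein gene, was higher in ESC, at 7.07 and 6.90 in ESC and 5.05 and 4.63 in EpiSC (difference 2.14 ± 0.27, 4.42-fold, adjusted p = 0.000970), though its other probe set gave 0.83. Plagl1, a zinc finger factor, was also higher in ESC (difference 1.83 ± 0.40, 3.54-fold, adjusted p = 0.0148), a call lost without any of the 4 arrays. The count of 5 fell to 3 without ESC replicate 2 or either EpiSC array. Arrays cannot tell the alleles apart.

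Markers of other lineages did not all follow the state. Of 18 primitive endoderm genes, 3 were called in each direction, with a median of 0.03, and of 13 trophectoderm genes 3 were called higher in ESC and 1 higher in EpiSC. The count of 1 went to 0 without ESC replicate 2 and to 2 without any other of the 4 arrays. Tead4, a transcription factor of the trophectoderm, was at 7.90 and 7.84 in ESC and 5.19 and 5.36 in EpiSC (difference 2.60 ± 0.18, 6.05-fold, adjusted p = 5.55e-05). Of the 5 tested primitive endoderm markers set beside the labels (among them Gata4, Gata6 and Sox17), 0 were called. Their mean level was 4.35 and 4.51 on the ESC arrays and 4.78 and 4.94 on the EpiSC arrays, against 6.65 and 6.53 in ICM. Of 4 tested genes of the two-cell stage, 0 were called by limma, with 1 higher in ESC and 0 in EpiSC at an unadjusted p under 0.05.

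The largest differences of all included genes with no place in these lists. 2210409E12Rik, known by its clone name and annotated as a transcribed pseudogene, had the widest gap of the comparison. It was at 9.72 and 9.87 in ESC and 2.21 and 2.85 in EpiSC (difference 7.27 ± 0.23, 154-fold, adjusted p = 4.16e-06), with both EpiSC arrays far below the floor. Mylpf, a myosin light chain of skeletal muscle, was at 9.98 and 10.03 in ESC and 4.72 and 5.56 in EpiSC (difference 4.86 ± 0.28, 29.1-fold, adjusted p = 2.58e-05), and Gtsf1l at 8.87 and 8.92 in ESC and 3.37 and 4.90 in EpiSC (difference 4.76 ± 0.41, 27.1-fold, adjusted p = 0.000153). Arl14epl and Pla2g1b, a secreted phospholipase, were 20.5-fold and 15.4-fold higher in ESC. In EpiSC, Spink1, a protease inhibitor of the pancreas, was at 2.93 and 3.0 in ESC and 7.51 and 8.31 in EpiSC (difference -4.94 ± 0.26, 30.7-fold, adjusted p = 1.95e-05). The carbonic anhydrases Car2 and Car4, which interconvert carbon dioxide and bicarbonate, were at 4.50 and 4.20 in ESC and 9.11 and 9.14 in EpiSC (difference -4.78 ± 0.20, 27.4-fold, adjusted p = 6.68e-06) and at 4.42 and 3.87 in ESC and 7.77 and 8.39 in EpiSC (difference -3.93 ± 0.29, 15.3-fold, adjusted p = 7.39e-05). Mup6, a major urinary protein gene of a family of near-identical copies whose signal could be shared, was 15.9-fold higher in EpiSC. Of the 12 largest in each direction, 5 of those higher in ESC had an EpiSC mean below the floor, and 9 of those higher in EpiSC had an ESC mean below it.

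The 1001 called genes were then followed in FGF-ESC and ICM. Arrays of these groups entered the filter, the choice of probe sets and the spread, but not the contrast. The 476 genes higher in ESC had median levels of 6.82 and 6.82 on the ESC arrays, 4.86 and 5.0 on the EpiSC arrays, 6.07 and 6.38 on the FGF-ESC arrays and 6.12 and 6.07 on the ICM arrays. The 525 genes higher in EpiSC had medians of 4.84 and 4.85 in ESC, 6.53 and 6.64 in EpiSC, 6.05 and 5.74 in FGF-ESC and 4.67 and 4.71 in ICM. By group means, FGF-ESC lay nearer ESC than EpiSC for 308 of the 476 (64.7%) and for 278 of the 525 (53%), and ICM for 246 (51.7%) and 447 (85.1%). Over all 13597 genes tested, FGF-ESC lay nearer ESC for 50.2% and ICM for 54.8%. These shares are given without a test, since the ESC and EpiSC arrays both chose the genes and serve as the reference.

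Single genes departed from the medians. Lrrc34, Pla2g1b and Nr0b1 were high in ESC and in FGF-ESC (mean levels of 6.87, 8.18 and 8.35) but low in ICM (3.51, 3.88 and 3.93). Fabp7, Car2 and Slc39a8 stood at 3.74, 4.40 and 3.86 in FGF-ESC and at 3.52, 3.78 and 3.85 in ICM, far under their EpiSC levels. The Slc39a8 arrays of the other 3 groups did not reach 4.24.

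**Figure D5:**
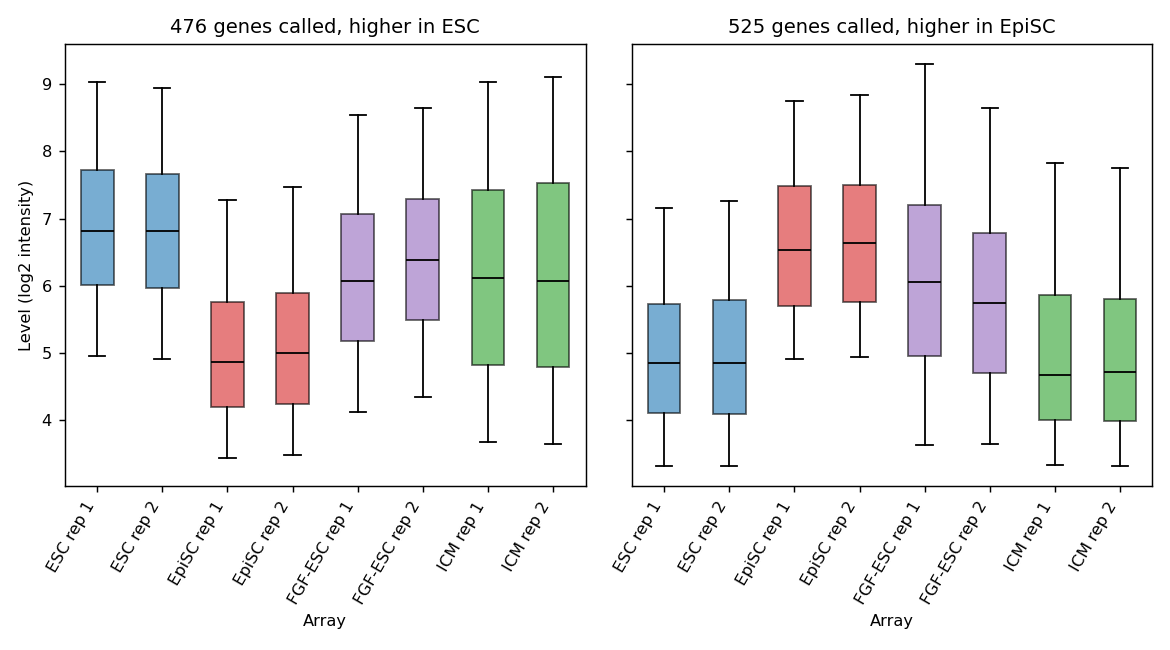
Level (log2 intensity, vertical axis) of the 476 genes called higher in ESC (left) and the 525 called higher in EpiSC (right) on each of the 8 arrays; boxes span the quartiles with the median as a line, and whiskers reach the 5th and 95th percentiles. On the left the FGF-ESC and ICM medians (6.07 to 6.38) lie between those of ESC and EpiSC; on the right the ICM medians (4.67 and 4.71) lie at or below those of ESC.

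Promoter composition is given for the called genes beside all tested genes. The CpG content, as the observed over the expected number of CG pairs in the 300-base window, had a median of 0.738 over the 10611 tested genes with a RefSeq promoter, 0.560 over 366 genes higher in ESC and 0.699 over 379 genes higher in EpiSC. A ratio under 0.4 was found in 20.7% of all, in 33.3% of those higher in ESC and in 19.8% of those higher in EpiSC. The half-site AAGGTCA of nuclear receptors such as ESRRB and NR5A2, read on both strands, was in 6.28% of the promoters higher in ESC, 2.11% of those higher in EpiSC and 3.27% of all. The octamer ATGCAAAT of POU factors was in 11 of the 366 promoters higher in ESC, 9 of the 379 higher in EpiSC and 148 of the 10611, and the ETS string CCGGAAG in 10.1% and 5.81% against 16.6%. These are descriptions of letters in a window, without a test.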

How the data were processed

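Total RNA of the cultured cells and of the ICM was amplified with the Ovation Pico WTA system and hybridised to Affymetrix Mouse Gene 2.1 arrays, per the labels' protocols. The deposited log2 intensities come from the authors' run of Expression Console 1.3.1 (Affymetrix), a program that the submitters' processing notes name. How it summarised probes and corrected background is not given in those notes. The arrays carry no read depth, and their number, 2 a group, limits the precision.

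Of 41345 probe sets, 23521 had 1 gene symbol in the platform annotation, 1814 had several and 16010 had none. The brightest probe set stood for each of 22180 genes. The 13597 genes tested exceeded 4.24, the median over all values, on 2 or more of the 8 arrays. A means model over all 8 arrays was fitted with limma 3.58.1 (lmFit and eBayes, R 4.3.3; 4 residual degrees of freedom), and the p-values of the contrast ESC minus EpiSC were adjusted over all 13597 genes by Benjamini-Hochberg. Adjusted p-values in the text are from this fit unless another setting is named. The fit was tested on simulated data.

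Of the 855 entries of 34 gene lists, 685 were matched and 605 tested. Named genes are the 12 largest called differences in each direction, a panel of 30 genes and, for each list, up to 6 called members with the smallest adjusted p and up to 3 not called with the highest level; others are said to be named after their values were seen. The members and lists were chosen with earlier results of these data known. The alternatives tried were the arrays in the fit, the filter, the normalization, the treatment of probe sets, the fold minimum, an intensity trend, the replicate number as a block and leaving out each array. Same-numbered arrays did not deviate together (correlation of deviations for ESC and EpiSC 0.02, and between -0.09 and 0.04 over all pairs of groups), so the replicate numbers were treated as names only. Promoters and microRNAs were taken from RefSeq tables on GRCm38.p6, and no genome sequence was used.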

Additional observations from a re-analysis of the deposited data

How the results depend on the processing

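The total of 1001 calls stayed within 1.5 times under every alternative except the fold minimum. Without a fold minimum 2584 genes passed, 1244 higher in ESC and 1340 higher in EpiSC, and with a minimum of 2 on the log2 scale 266 passed, 143 and 123. Leaving out 1 of the 4 arrays gave 848 to 915 calls, 407 to 485 higher in ESC and 415 to 479 higher in EpiSC. The fit of the 4 arrays alone called 480 and 554, among them all 476 and 525 of the main fit. The replicate block called 475 and 523, quantile normalization 486 and 536, median centring 448 and 549, and the stricter filter 441 and 468. The replicate block moved no count of calls by over 1.5 times. The share of calls higher in ESC was 47.6% and lay between 44.9% and 53.8% under the alternatives. No gene named in the text reversed its direction as a called gene under any alternative tried.

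Of 181 named genes that were called, 33 lost the call without at least 1 of the 4 arrays and 7 without each of them (Btg2, Cdh2, Eif2ak2, Mir15a, Mmp14, Plagl1 and Serpinh1), while 5 lost it under another setting and 6 that had not been called gained one. These counts leave out the changes of the fold minimum, which move calls by their own construction, and the setting with every probe set on its own. Of 657 genes with several tested probe sets, 91 had at least 1 called, 38 had all called in the same direction and 0 had calls in opposite directions. Over the named genes and the same settings, 3743 values kept their direction and their side of the threshold, 89 lost and 11 gained a call, and 24 of genes that were not called changed sign. Of the counts of called members per list, now with the fold minima included, 121 moved by over 1.5 times and 1035 did not. The arrays give no measure of signal over background other than the floor, so differences between levels below it were not ranked.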

Other observations

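Gene families outside the lists were looked at after their values were seen and are given as counts without a test. Of 127 tested zinc finger genes with numbers from Zfp600 to Zfp999, 14 were called higher in ESC (11%) and 2 higher in EpiSC (1.57%), against 3.5% and 3.86% of all genes. Of 12 tested Platr genes, noncoding transcripts named for pluripotency, 5 were called higher in ESC and 0 higher in EpiSC. Platr10 was at 8.97 and 8.92 in ESC and 5.34 and 5.95 in EpiSC (difference 3.30 ± 0.24, 9.85-fold, adjusted p = 7.28e-05). Of 628 tested long noncoding RNA genes, 21 were called higher in ESC and 4 higher in EpiSC. Carbonic anhydrases differed in both directions: of 10 tested, Car2, Car3 and Car4 were called higher in EpiSC and Car8 higher in ESC. Of 5 tested protocadherins, 3 were called higher in EpiSC, and of 52 tested ribosomal protein genes 0 were called in either direction.

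Of 441 tested genes on the X chromosome, 34 were called higher in EpiSC (7.71%) and 17 higher in ESC (3.86%). The corresponding shares of all tested genes were 3.86% and 3.5%. Chromosomes 3 and 18 had 6.6% and 5.3% higher in EpiSC. Xist, the RNA that coats the inactive X chromosome, lay near the floor in both groups, at 4.28 and 4.49 in ESC and 3.75 and 4.37 in EpiSC. The Y-linked genes Eif2s3y and Uty were higher in EpiSC, by -1.84 ± 0.15 (adjusted p = 9.65e-05) and -1.07 ± 0.17 (adjusted p = 0.00363). Other Y-linked genes went the other way. Srsy and Sly, members of multicopy families whose copies share sequence, were higher in ESC, by 2.53 ± 0.24 (adjusted p = 0.000241) and 2.38 ± 0.29 (adjusted p = 0.000908), as were Gm20747, Gm20815 and Gm20816, while Sry and Gm20822 were not called. The sex of the lines is not given in the labels used here.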
